A study of Mus musculus with 9 samples.

Results

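The genes described here encode the machinery that acidifies lysosomes and the enzymes and membrane proteins that work in the acid: the vacuolar proton pump (V-ATPase), hydrolases and their helpers, membrane proteins, and the transcription factors Tfeb and Tfe3. Members were every gene whose symbol begins with Atp6v or Atp6ap, plus 22 named genes, which gave 44 of the 16200 genes in the deposited table. They comprised 11 genes of the peripheral V1 sector of the pump, 9 of its membrane V0 sector, 2 accessory proteins, 12 hydrolases, 2 activator or sterol carrier proteins, 6 membrane proteins and 2 factors. Of these, 40 passed the filter on low counts and were tested. The membership rule used no measured value. PolyA RNA came from wild-type mouse macrophages grown from bone marrow for 6 days in medium with L929 cell supernatant, a source of macrophage growth factor. There were 3 untreated libraries, 3 from cells exposed for 12 h to 20 ng/ml of interleukin-4 (IL-4), a cytokine that induces alternative activation, and 3 from cells exposed for 6 h to 100 ng/ml of interleukin-27 (IL-27), a relative of IL-12. The sources used here do not give the age or sex of the mice, the time at which untreated cells were collected, or whether IL-27 cells also received IL-4. Dose, time and cytokine cannot be told apart between the cytokine groups. The 3 libraries of a group are described as replicate experiments without naming separate mice or cultures, and p-values therefore reflect only the spread between libraries, part of which may be technical.

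The V-ATPase is a rotary motor. Its V1 sector, in the cytosol, burns ATP on the catalytic A subunit. Stalks made of other subunits couple that to a V0 ring that carries protons across the membrane. The C and H subunits take part in the reversible docking of V1 onto V0, and the a subunit of V0 decides in large part in which membrane a pump resides. Macrophages depend on the acid so produced for breaking down engulfed cells, lipids and glycans. Hydrolases arrive mostly by the mannose 6-phosphate route, and TFEB and TFE3 bind E-box-like elements in the promoters of many of these genes.

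Total counts were 34577188 to 37951827 per library, and levels are TMM-scaled CPM (n = 3 libraries per group). All 7 macrophage markers examined passed the filter on low counts, with summed levels of 22740 to 31420 CPM untreated, 14440 to 18040 CPM under IL-4 and 24050 to 26110 CPM under IL-27. Most of that sum was Lyz2. Of the 7, 3 were called lower under IL-4 (Lyz2, Mertk and Fcgr1) and 4 under IL-27 (Adgre1, Csf1r, Mertk and Fcgr1), and 0 higher under either. Markers of T cells (summed level at most 0.176 CPM), mast cells and eosinophils (at most 0.117 CPM) and erythroid cells (at most 0.325 CPM) were near 0. Those of B cells, neutrophils and dendritic cells reached at most 1.28, 9.08 and 1.47 CPM. Of 6 fibroblast markers, 4 were higher under IL-27 than in untreated cells and 0 under IL-4, with a summed level of 716.5 to 814 CPM untreated, 555 to 753 CPM under IL-4 and 1069 to 1341 CPM under IL-27. Osteoclast markers, of which 5 of 7 were tested, summed to 118 to 126 CPM untreated, 222 to 272 CPM under IL-4 and 187 to 206 CPM under IL-27. Ocstamp (31.7-fold) and Acp5 (2.13-fold) were higher under IL-4, Mmp9 (2.46-fold) and Ctsk (1.97-fold) were higher and Ocstamp lower under IL-27 (edgeR adjusted p from 2.97e-07 to 0.00419), and Calcr and Oscar were at most 0.248 CPM in any library. The part of these other cell types in the results below was not tested, and in such bulk libraries fewer cells of a type and less RNA per cell cannot be told apart. Untreated replicate 2 and IL-4 replicate 1 stood apart from the other libraries of their groups, and results are given with and without them.

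Levels between genes are compared per length, in deposited FPKM. The most abundant member was Psap, the precursor of the saposins that present sphingolipids to their hydrolases, at 6385 ± 939 FPKM in untreated libraries (mean ± SD, n = 3). The tetraspanin Cd63 and the membrane glycoprotein Lamp1 followed at 1127 ± 148 and 1113 ± 67.7 FPKM, and the acid lipase Lipa, which frees cholesterol and fatty acids from lipoprotein lipids, at 909 ± 113 FPKM. Among hydrolases the next were the hexosaminidase subunit Hexa (520.3 ± 11.0 FPKM) and the mannosidase Man2b1 (313 ± 31.7 FPKM). In the V1 sector the B subunit Atp6v1b2 led with 376 ± 30.9 FPKM, followed by Atp6v1e1 (212 ± 17.2 FPKM) and the catalytic A subunit Atp6v1a (211 ± 22.6 FPKM). In V0 the ring subunit Atp6v0c stood at 345 ± 58.3 FPKM, Atp6v0d2 at 265 ± 48.5 and Atp6v0b at 229 ± 4.76 FPKM. Tfeb was low among the tested members, at 11.7 ± 1.93 FPKM, and Tfe3 stood at 46.2 ± 3.94 FPKM.

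Where a pump subunit has more than 1 gene, these cells used mostly 1 of them, except for the a and d subunits. The tissue-restricted genes Atp6v1b1, Atp6v1c2 and Atp6v0a4 had 0 to 4 counts in any library and Atp6v0e2 0 to 21, and these 4 members were not tested. Of the G subunit, Atp6v1g1 made up 98.0% ± 0.785 of the summed FPKM untreated (SD, n = 3), 98.4% ± 0.595 under IL-4 and 98.9% ± 0.229 under IL-27, the rest being the neuronal form Atp6v1g2. For the d subunit, Atp6v0d2, known from osteoclasts and macrophages, exceeded the ubiquitous Atp6v0d1 in each of the 9 libraries. Its share was 69.1% ± 6.83 untreated, 74.3% ± 5.21 under IL-4 and 72.2% ± 0.962 under IL-27. Over all libraries these differences were smaller than the spread. Untreated replicate 2 (61.3%) and IL-4 replicate 1 (68.3%), which stand apart, were the lowest of their groups. In the others the share was 72.4% and 73.7% untreated and 71.9%, 73.3% and 71.5% under IL-27. It was 76.7% and 77.8% under IL-4, above all of these, a difference that was not tested.

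Of the 40 tested members, 1 rose and 5 fell under IL-4, against 12.9% of all 12587 tested genes called higher and 12.0% called lower (edgeR adjusted p under 0.05). Under IL-27, 9 rose and 2 fell, against 14.0% and 15.1%. Between the cytokines 16 were higher under IL-27 and 2 lower, against 18.8% and 21.0%. Called in at least 1 comparison were 20 members, and in none the other 20. Under IL-27, 7 of 18 tested pump genes rose, 1 fell and 10 did not pass. In the V1 sector 5 of 9 genes were higher and 0 lower, and in V0 1 of 7 was higher and 1 lower. Without the libraries that stand apart, 7 of 9 V1 and 6 of 8 V0 genes were higher, where 24.2% of all tested genes were. With all libraries the median log2 fold change of V1 genes under IL-27 was 0.26, and that of all tested genes 0.00. The summed fibroblast markers were also highest in the IL-27 libraries, where 4 of 7 macrophage markers were lower than untreated, and 3 of 7 were lower under IL-4. The part of these markers in the counts was not tested.

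Atp6v1c1, the C subunit that clamps V1 to V0, stood at 285, 294 and 278 CPM in the untreated libraries, at 271, 276 and 252 CPM under IL-4 and at 508, 531 and 538 CPM under IL-27. The IL-27 libraries lay far above all others, a 1.84-fold rise over untreated cells (log2 fold change 0.88 ± 0.08, edgeR adjusted p = 2.2e-05) and a 1.97-fold difference from IL-4 (edgeR adjusted p = 5.02e-06). Atp6v1d, part of the central rotor, had 105, 102 and 99.3 CPM untreated, 101, 108 and 103 under IL-4 and 169, 179 and 171 under IL-27. Untreated and IL-4 values overlapped while IL-27 values did not (1.70-fold over untreated, edgeR adjusted p = 5.39e-05). The peripheral stalk subunit Atp6v1g1 was at 182, 120.2 and 180.3 CPM untreated, 128, 198 and 188 under IL-4 and 279, 290.3 and 285 under IL-27. The lowest value in each of the first pair of groups belonged to the libraries that stand apart. The rise over untreated was 1.77-fold with them (log2 fold change 0.82 ± 0.19, edgeR adjusted p = 0.00854) and 0.65 on the log2 scale without them. Atp6v1h, the H subunit that restrains ATP use in free V1, had 123, 108 and 124 CPM untreated, 122, 146 and 141 under IL-4 and 186, 194 and 183 under IL-27. Again all IL-27 libraries lay above the others (1.58-fold over untreated, edgeR adjusted p = 0.000572).

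The remaining V1 genes moved less. Atp6v1e1, the partner of Atp6v1g1 in the stalk, had 258, 255 and 264 CPM untreated and 305, 317 and 306 under IL-27 (log2 fold change 0.26 ± 0.07, edgeR adjusted p = 0.0249), a call lost when any 1 untreated or IL-27 library was left out (edgeR adjusted p from 0.0548 to 0.101). Atp6v1a was at 936, 885 and 963 CPM untreated, 816, 905 and 874 under IL-4 and 1068, 1100 and 1101 under IL-27. Its IL-27 values lay above both other groups, but only the difference from IL-4 passed (edgeR adjusted p = 0.0075, against 0.0512 from untreated). That call was lost with no scaling beyond library totals (edgeR adjusted p = 0.0574). Atp6v1b2 went the other way between the cytokines, with 1511, 1261 and 1205 CPM under IL-4 and 879, 929 and 898 under IL-27 (log2 fold change -0.56 ± 0.13, edgeR adjusted p = 0.00581). The untreated libraries, at 952, 1230 and 946 CPM, overlapped the IL-4 group and not the IL-27 group. With all libraries neither cytokine passed against them. Without the libraries that stand apart Atp6v1b2 was higher under IL-4 (log2 fold change 0.38 ± 0.04, edgeR adjusted p = 8.18e-08), and IL-27 did not pass (edgeR adjusted p = 0.109). Atp6v1f and Atp6v1g2 did not pass in any comparison. Under IL-4, 0 of 9 V1 genes rose or fell with all libraries, with log2 fold changes of -0.23 to 0.35. Without the libraries that stand apart 2 of 9 were higher under IL-4 and 0 lower, where 24.0% and 22.3% of all tested genes were called. These were Atp6v1b2 and Atp6v1h (log2 fold change of Atp6v1h 0.22 ± 0.05, edgeR adjusted p = 0.00118).

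**Figure D1:**
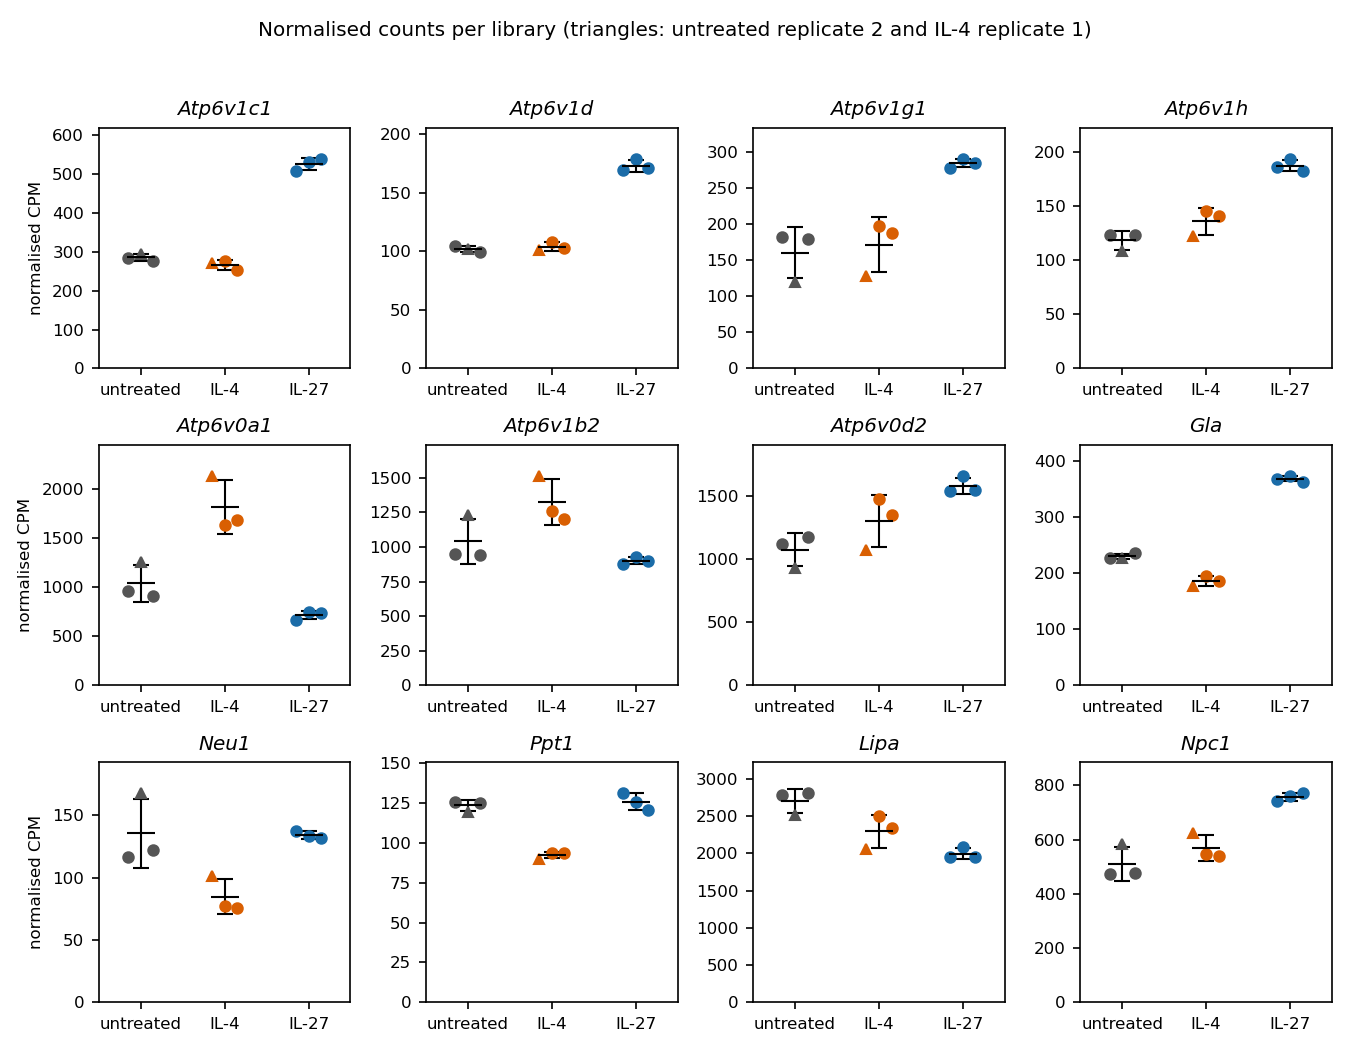
Normalised counts (CPM, vertical axes, linear, from 0) of 12 members in each of the 9 libraries. Points are libraries, triangles mark untreated replicate 2 and IL-4 replicate 1, and horizontal bars with whiskers give the mean and SD of 3 libraries. For the 4 V1 genes in the top row the IL-27 libraries lie above all others, Atp6v0a1 is highest under IL-4, and Neu1 and Ppt1 are lowest under IL-4.

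The V0 sector held the sharpest contrast between the cytokines. Atp6v0a1, the most widely expressed form of the a subunit, had 959, 1255 and 905 CPM untreated, 2125, 1633 and 1682 under IL-4 and 664, 747 and 736 CPM under IL-27. The 3 groups did not overlap. It rose 1.74-fold under IL-4 (log2 fold change 0.80 ± 0.15, edgeR adjusted p = 0.0029), the only member called higher than in untreated cells there with all libraries in the fit. Under IL-27 it fell by 0.54 on the log2 scale (SE 0.14, edgeR adjusted p = 0.019). That fall no longer passed when any 1 IL-27 library was left out (edgeR adjusted p from 0.0509 to 0.0811). The direct difference between the cytokines was 2.53-fold (log2 fold change -1.34 ± 0.15, edgeR adjusted p = 5.75e-05). Without the libraries that stand apart the changes were 0.83 ± 0.05 under IL-4 and -0.39 ± 0.05 under IL-27 (log2, edgeR adjusted p = 8.45e-13 and 1.17e-07).

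The a subunit is also encoded by Tcirg1, the form of secretory lysosomes and osteoclasts, which the symbol rule does not take in. Tcirg1 had 834, 1260 and 784 CPM untreated, 1060, 710.5 and 745 under IL-4 and 974, 1053 and 1013 under IL-27, and passed in no comparison (edgeR adjusted p = 0.522, 0.795 and 0.3). In summed FPKM of the a subunit genes, Atp6v0a1 made up 42.9% ± 1.88 untreated, 59.7% ± 1.60 under IL-4 and 32.6% ± 0.677 under IL-27 (SD, n = 3). Tcirg1 made up 54.4% ± 2.20, 38.1% ± 1.83 and 64.3% ± 0.753 in the same order. Tcirg1 thus had the larger share in untreated and IL-27 libraries and Atp6v0a1 in IL-4 libraries, with no overlap between groups. Atp6v0a2, the Golgi-linked form, stayed at 2.21% to 3.15% of the sum in group means.

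**Figure D2:**
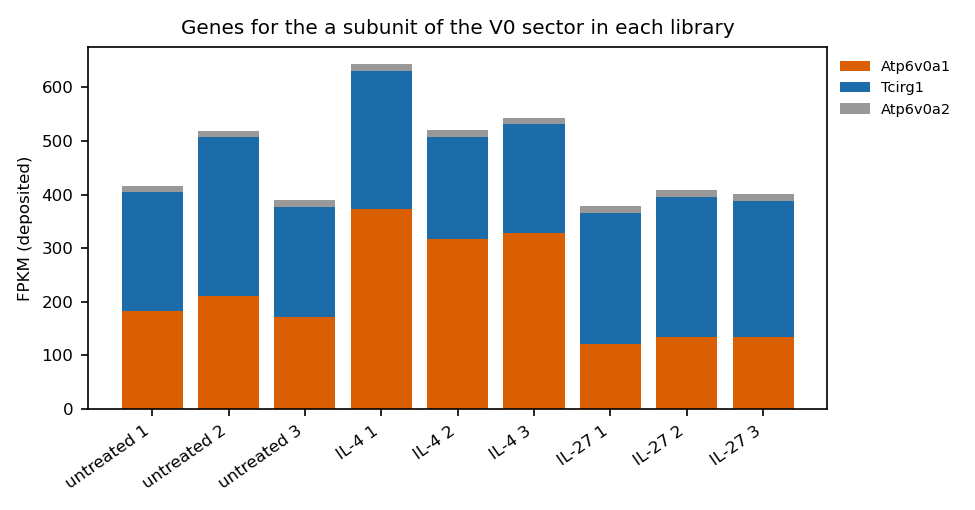
Deposited FPKM (stacked bars, linear from 0) of the genes for the a subunit of V0 in each of the 9 libraries. Atp6v0a1 is the larger part in the 3 IL-4 libraries and Tcirg1 in the 6 others. Atp6v0a4, at 0 to 2 counts per library, is not drawn.

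Atp6v0d2, at 1120, 928 and 1181 CPM untreated, 1075, 1478 and 1352 under IL-4 and 1545, 1658 and 1550 under IL-27, rose under IL-27 (1.47-fold, edgeR adjusted p = 0.0103). Its IL-4 values overlapped those of untreated cells (log2 fold change 0.27 ± 0.13, edgeR adjusted p = 0.162), and within both groups the library that stands apart was the lowest. Atp6v0d1 had 173, 238 and 171 CPM untreated, 202, 182 and 156 under IL-4 and 245, 245 and 251 under IL-27. It passed only between the cytokines (log2 fold change 0.45 ± 0.14, edgeR adjusted p = 0.0261), a call that ended when replicate 2 or 3 of IL-4 or any 1 library of IL-27 was left out (edgeR adjusted p from 0.0579 to 0.096). The ring subunit Atp6v0b was lowest under IL-4, at 304, 258 and 264 CPM, against 361, 356 and 354 under IL-27 (log2 fold change 0.38 ± 0.10, edgeR adjusted p = 0.0107). Atp6v0c had 461, 684 and 456 CPM untreated, 632, 457 and 449.8 under IL-4 and 582, 591 and 583 under IL-27. It overlapped between groups and passed in no comparison, nor did Atp6v0e or Atp6v0a2. Atp6v0c has processed copies in the genome, and the sources used here do not say how shared reads were counted, so its level is uncertain.

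Of the accessory proteins, Atp6ap2, also known as the prorenin receptor, had 290.1, 248 and 298 CPM untreated, 242, 305 and 297 under IL-4 and 345, 372 and 354 under IL-27. IL-27 values lay above those of both other groups (log2 fold change 0.36 ± 0.11, edgeR adjusted p = 0.034). The call was lost without untreated replicate 1 or 2 or any 1 IL-27 library (edgeR adjusted p from 0.0621 to 0.117). The difference from IL-4 (log2 fold change 0.34 ± 0.11, edgeR adjusted p = 0.0309) ended likewise when replicate 1 of IL-4 or any 1 library of IL-27 was left out (edgeR adjusted p from 0.0658 to 0.106). Atp6ap1, which helps assemble the pump, stayed at 440.1, 550.1 and 446 CPM untreated, 513, 430.3 and 420.2 under IL-4 and 438, 457 and 450 under IL-27 and did not pass.

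Of the 12 hydrolases, 3 fell under IL-4 and 0 rose, with a median log2 fold change of -0.26, where 12.0% of all tested genes fell and 12.9% rose. Without the libraries that stand apart 9 of 12 fell and 1 rose, where 22.3% and 24.0% of all tested genes did. Under IL-27, 1 hydrolase rose, 1 fell and 10 did not pass, with a median of -0.08, and each count (8.33%) was below the share of all tested genes, 14.0% and 15.1%. Between the cytokines 3 were higher under IL-27 and 0 lower, where 18.8% and 21.0% of all tested genes were. Gla, the galactosidase that clears globotriaosylceramide and is lost in Fabry disease, had 227, 228 and 236 CPM untreated, 178, 196 and 187 under IL-4 and 369, 373 and 364 under IL-27. The 3 groups did not overlap. It rose 1.60-fold under IL-27 (log2 fold change 0.68 ± 0.07, edgeR adjusted p = 9.66e-05) and was lower under IL-4 (log2 fold change -0.30 ± 0.07, edgeR adjusted p = 0.0134). The IL-4 call was lost without untreated replicate 3, in a fit of these 2 groups alone, and with no scaling beyond library totals (edgeR adjusted p from 0.054 to 0.0693). Between the cytokines Gla differed 1.97-fold (edgeR adjusted p = 4.08e-06).

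Neu1, the sialidase of the lysosome, had 117, 168 and 122 CPM untreated, 101, 77.5 and 75.8 under IL-4 and 138, 133 and 132 under IL-27. Every IL-4 library lay below every other (log2 fold change -0.68 ± 0.15, edgeR adjusted p = 0.0098), although both libraries that stand apart were the highest of their group. Ppt1, which removes fatty acids from proteins, had 126, 119 and 125 CPM untreated, 89.8, 93.6 and 93.4 under IL-4 and 131, 126 and 120.2 under IL-27, with IL-4 again lowest (log2 fold change -0.42 ± 0.08, edgeR adjusted p = 0.00286). Lipa had 2785, 2520 and 2807 CPM untreated, 2061, 2499 and 2338 under IL-4 and 1954, 2089 and 1953 under IL-27. It fell by 0.44 on the log2 scale under IL-27 (SE 0.10, edgeR adjusted p = 0.00768). Under IL-4 its values lay below the untreated ones too, but did not pass (log2 fold change -0.23 ± 0.10, edgeR adjusted p = 0.11). Hexa had 1038, 1161 and 1077 CPM untreated, 975, 941 and 894 under IL-4 and 965, 1018 and 968 under IL-27. Man2b1 had 1395, 1854 and 1378 CPM untreated, 1494, 1183 and 1138 under IL-4 and 1276, 1350 and 1267 under IL-27. Both belong to the 8 hydrolases that passed in no comparison. The rest of the 8 are the glucosidase Gaa, the galactosidase Glb1, the glucuronidase Gusb, the ceramidase Asah1, the sphingomyelinase Smpd1 and the peptidase Tpp1. Log2 fold changes of the 8 were -0.46 to 0.15 under IL-4 and -0.33 to 0.13 under IL-27.

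**Figure D3:**
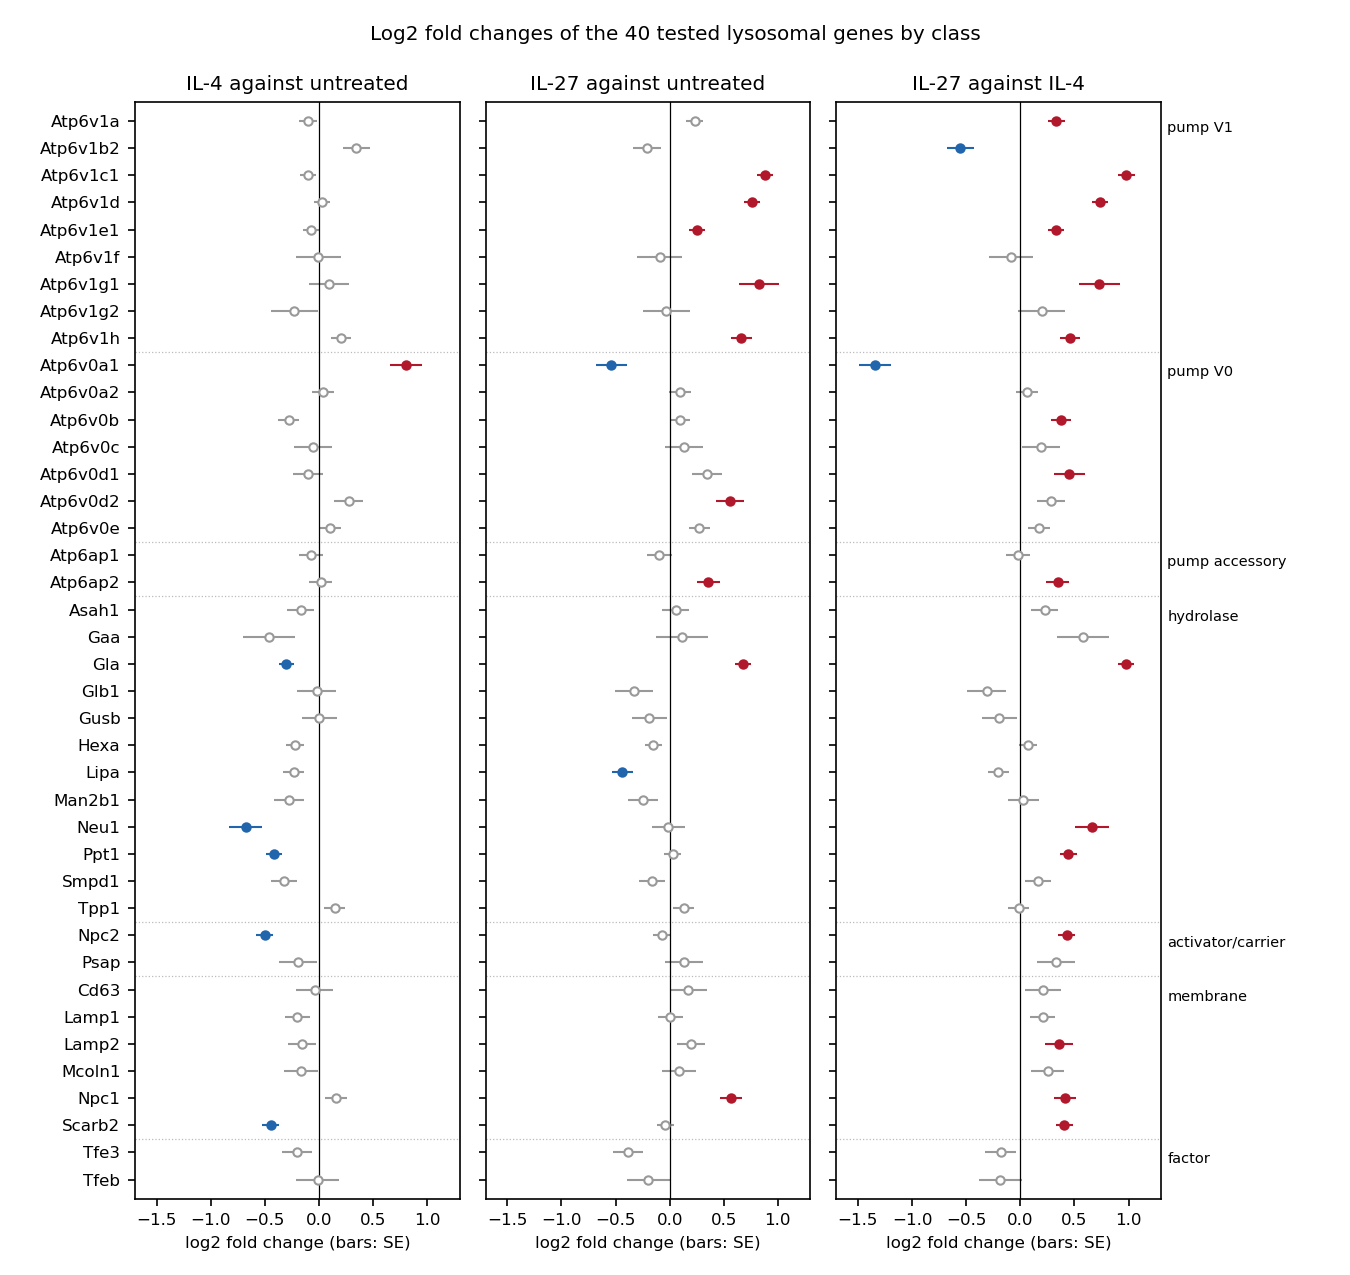
Log2 fold changes (horizontal axes) of the 40 tested members in the 3 comparisons, grouped by class, with bars for the SE. Red marks genes called higher, blue genes called lower and open grey points genes that did not pass (edgeR adjusted p under 0.05). In the middle panel 5 of 9 V1 genes are red, while in the left panel the 5 blue points are Gla, Neu1, Ppt1, Npc2 and Scarb2.

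Among carrier and membrane proteins, 2 of 8 fell under IL-4 and 1 rose under IL-27, where 12.0% of all tested genes fell and 14.0% rose. Npc2, which hands cholesterol to Npc1 inside the lysosome, had 1495, 1661 and 1607 CPM untreated, 1135, 1136 and 1091 under IL-4 and 1475, 1561 and 1489 under IL-27, so that IL-4 libraries lay below all others (log2 fold change -0.50 ± 0.08, edgeR adjusted p = 0.00132). Its membrane partner Npc1, which exports that cholesterol, had 474, 582 and 477 CPM untreated, 624, 546 and 539.6 under IL-4 and 742, 762 and 771 under IL-27, and rose under IL-27 (log2 fold change 0.57 ± 0.10, edgeR adjusted p = 0.00239). Scarb2, the receptor that delivers glucocerebrosidase, had 246, 264 and 274 CPM untreated, 181, 195 and 197 under IL-4 and 252, 255 and 254 under IL-27, with IL-4 lowest (log2 fold change -0.45 ± 0.08, edgeR adjusted p = 0.00219). Lamp2 had 719, 591 and 739 CPM untreated, 504, 693 and 638 under IL-4 and 761, 791 and 799.6 under IL-27. It passed only between the cytokines (edgeR adjusted p = 0.0483), a call that 11 of 16 alternatives ended (edgeR adjusted p from 0.0505 to 0.2), among them leaving out replicate 1 or 3 of the untreated group, replicate 1 or 3 of IL-4 or any 1 library of IL-27.

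Lamp1 had 2275, 2893 and 2360 CPM untreated, 2435, 2104 and 2015 under IL-4 and 2455, 2568 and 2533 under IL-27. The calcium channel Mcoln1 had 78.8, 107 and 74.1 CPM untreated, 92.1, 69.0 and 70.4 under IL-4 and 93.4, 88.9 and 93.2 under IL-27. Neither passed in any comparison. Cd63 had 1394, 1965 and 1402 CPM untreated, 1923, 1319 and 1392 under IL-4 and 1779, 1844 and 1740 under IL-27. Psap had 15510, 22570 and 15790 CPM untreated, 19040, 14280 and 13730 under IL-4 and 19190, 20510 and 19370 under IL-27. Neither of these passed either. The highest untreated and the highest IL-4 value of these 4 genes each came from a library that stands apart. Ppt1, Npc1, Lamp1, Atp6v1h and Atp6v1e1 are among 10 members that share 0.8% to 12.8% of their exon bases with another gene of the table in GENCODE M21, and since the sources used here do not give the counting strand, reads from such overlaps cannot be assigned. The transcription factor Tfeb had 78.9, 115 and 76.0 CPM untreated, 116, 72.6 and 79.1 under IL-4 and 76.1, 84.7 and 74.5 under IL-27, with no difference that passed (edgeR adjusted p = 0.978, 0.496 and 0.491). Tfe3 had 168, 212 and 160.2 CPM untreated, 188, 144 and 139 under IL-4 and 133, 142 and 139.8 under IL-27. The IL-27 values lay below the untreated ones without passing (log2 fold change -0.38 ± 0.14, edgeR adjusted p = 0.0645).

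Set side by side, the pump median lay above the hydrolase median under both cytokines. The median log2 fold change of the 18 pump genes exceeded that of the 12 hydrolases by 0.26 under IL-4 and by 0.33 under IL-27, and these comparisons share the untreated libraries. Under IL-4 the pump median was 0.00 and the hydrolase median -0.26. Under IL-27 they were 0.24 and -0.08. Medians over all tested genes were -0.01 and 0.00. In single libraries, the median ratio of hydrolases to their untreated mean was -0.11, 0.17 and -0.07 untreated, -0.15, -0.22 and -0.30 under IL-4 and -0.05, -0.06 and -0.11 under IL-27 (log2). For V1 genes it was 0.01, 0.00 and -0.04 untreated, -0.07, 0.00 and -0.09 under IL-4 and 0.24, 0.29 and 0.25 under IL-27. The V1 medians of IL-27 libraries thus lay above all others, and the hydrolase medians of IL-4 libraries below all others. V0 medians were -0.10, 0.16 and -0.08 untreated, 0.15, 0.00 and -0.04 under IL-4 and 0.13, 0.16 and 0.15 under IL-27. Those of IL-27 libraries overlapped untreated replicate 2 and IL-4 replicate 1, which stand apart. The pump median minus the hydrolase median was 0.07, -0.02 and -0.01 untreated, 0.17, 0.23 and 0.23 under IL-4 and 0.27, 0.32 and 0.35 under IL-27, with no overlap. The ratio of summed pump FPKM to summed hydrolase FPKM, which the abundant Lipa weighs on, was 1.26, 1.35 and 1.24 untreated, 1.69, 1.55 and 1.57 under IL-4 and 1.71, 1.70 and 1.75 under IL-27. Between the cytokines, IL-27 against IL-4, the medians differed by 0.19, with the pump at 0.31, hydrolases at 0.12 and all tested genes at 0.01. The 21 other lysosomal hydrolases and activators had medians of -0.08 under IL-4 and -0.12 under IL-27, so under IL-4 they lay closer to the pump than the 12 members did. These differences are descriptions and carry no test.

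**Figure D4:**
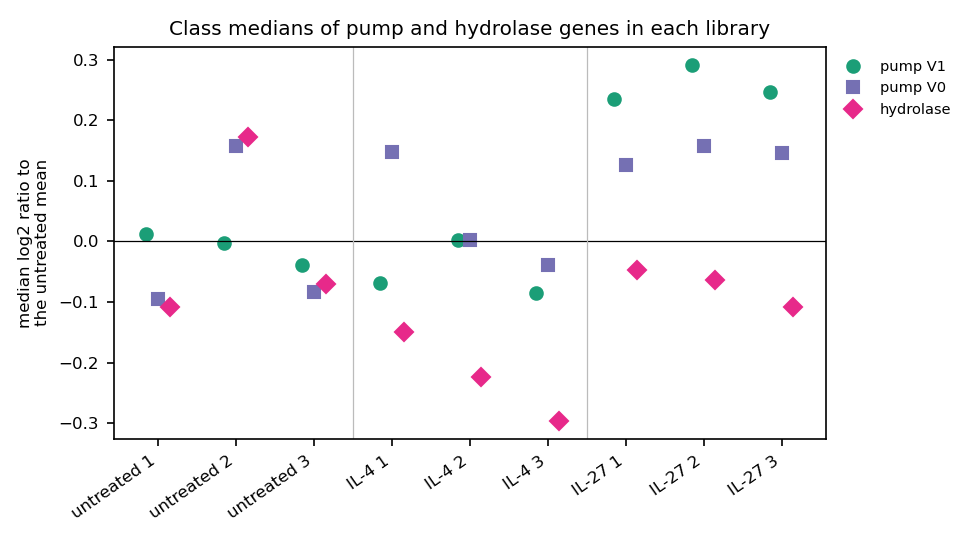
Median log2 ratio to the untreated mean (vertical axis) of V1, V0 and hydrolase genes in each of the 9 libraries. V1 medians are 0.24 to 0.29 in the 3 IL-27 libraries and -0.09 to 0.01 in the 6 others, and hydrolase medians are lowest in the 3 IL-4 libraries.

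The deviations of untreated replicate 2 and IL-4 replicate 1 from the other libraries of their groups followed base composition in these genes. Across the 40 tested members, which are not independent replicates, the log2 ratio of each library to the mean of its group's other libraries correlated with transcript GC content at r = 0.756 and 0.777. The deviations of the 2 libraries correlated with each other at r = 0.986. Gaa, at 59.5% GC, was higher by 0.78 in untreated replicate 2 and by 0.69 in IL-4 replicate 1, whereas Atp6v0d2, at 41.5%, was at -0.31 and -0.40 (log2). Atp6v1g1 had the largest negative deviation, -0.59 and -0.60, at 48.2% GC. Median GC content was 48.2% in V1 genes and 51.7% in hydrolases. The median deviations of V1 genes were 0.00 and -0.07 in the untreated and the IL-4 library, and those of hydrolases 0.27 and 0.24. The part of base composition in the results was not tested.

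**Figure D5:**
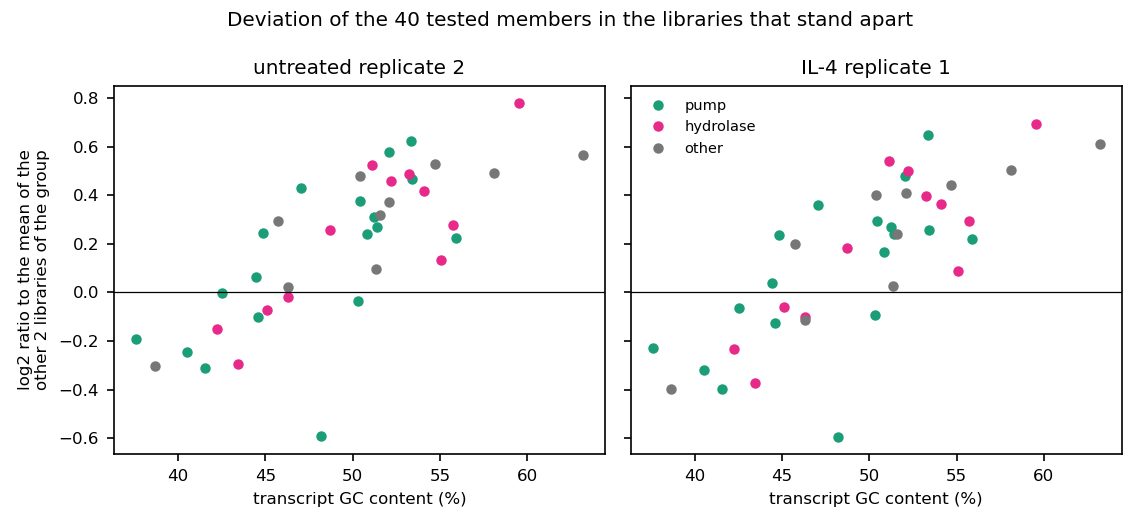
Log2 ratio of untreated replicate 2 (left) and IL-4 replicate 1 (right) to the mean of the other 2 libraries of the group (vertical axis) against GC content of the longest transcript (horizontal axis, %), for the 40 tested members. GC-rich members such as Gaa sit high and GC-poor ones such as Atp6v0d2 low in both libraries.

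Leaving out both libraries, which left 2 untreated, 2 IL-4 and 3 IL-27 libraries, kept the 35 calls on members across the 3 comparisons and added others. Under IL-4, 9 of 12 hydrolases were then lower and 1 higher, where 22.3% of all 12748 tested genes were called lower and 24.0% higher. Their median log2 fold change was -0.23. The hydrolases added were Gaa (-0.41 ± 0.06, edgeR adjusted p = 2.63e-06), Smpd1 (-0.33 ± 0.08, edgeR adjusted p = 0.00214), Man2b1, Lipa, Hexa and Asah1, and the 1 that rose was Tpp1 (0.18 ± 0.04, edgeR adjusted p = 0.00219). Of 19 pump genes, 4 were higher under IL-4 and 1, Atp6v0b, was lower (-0.28 ± 0.04, edgeR adjusted p = 1.41e-05). The 4 were Atp6v0a1, Atp6v1b2, Atp6v1h and Atp6v0d2 (0.30 ± 0.05, edgeR adjusted p = 1.45e-05 for Atp6v0d2). Under IL-27, 14 of 19 pump genes were higher and 2 lower, where 24.2% and 25.3% of tested genes were called. Of 9 V1 genes 7 were higher and 0 lower, with a median of 0.24, and the V0 median was 0.26. Of the 8 V0 genes then tested 6 were higher and 2 lower. Among the higher were Atp6v0c (0.35 ± 0.04, edgeR adjusted p = 5e-08), Atp6v0d1 (0.52 ± 0.05, edgeR adjusted p = 9.82e-09) and Atp6v0e (0.36 ± 0.04, edgeR adjusted p = 2.36e-07). The 2 lower were Atp6v0a1 and Atp6v0e2. Atp6v0e2 had failed the filter with all libraries, and here had 9 and 13 counts untreated, 21 and 1 under IL-4 and 4, 0 and 0 under IL-27. It passed the filter through untreated and IL-4 libraries, so its call at so few counts is not read as a fall. Atp6v0e2 is also among the lower genes in the counts of pump genes under IL-27 and of members between the cytokines. Of 12 hydrolases 4 were higher and 4 lower under IL-27. Psap, Cd63, Lamp1 and Mcoln1 also passed as higher under IL-27, at 0.33, 0.35, 0.11 and 0.26 (log2, edgeR adjusted p = 4.6e-08, 4.12e-08, 0.0154 and 0.000341). Between the cytokines 27 of 41 tested members were higher under IL-27 and 4 lower (27.9% and 30.3% of tested genes), and each of the 6 membrane genes was higher. The median of the 19 pump genes was -0.01 under IL-4, 0.24 under IL-27 and 0.27 between the cytokines, and that of hydrolases -0.23, -0.03 and 0.13. Over the 18 pump genes tested with all libraries, the pump median exceeded that of hydrolases by 0.24, 0.29 and 0.15. Tfe3 was lower under IL-4 (-0.21 ± 0.05, edgeR adjusted p = 0.00214) and under IL-27 (-0.25 ± 0.05, edgeR adjusted p = 0.000119), and Tfeb did not pass.

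Promoter windows from RefSeq (GRCm38.p6, 250 bases before to 50 after the start site) were available for 36 of the 44 members, matched by gene ID. Those without one were Asah1, Atp6v0a2, Atp6v0d2, Atp6v1b2, Atp6v1c1, Atp6v1g1, Atp6v1h and Npc1. The E-box CACGTG, which reads the same on both strands and is the core of the element bound by TFEB and TFE3, was found in the windows of 9 members (25.0%). It was found in 10.8% of the 12688 genes of the deposited table with a window, and in 7.15% of all 32851 windows. By class it was in 4 of 16 pump genes and 3 of 11 hydrolases with a window. The longer form TCACGTGA, which contains CACGTG, was found in 5 members (13.9%), namely Atp6v0d1, Atp6v0e, Atp6v1a, Gla and Mcoln1, and in 1.87% of genes of the table. The palindrome that extends TCACGTGA by 1 more base on each side, G and C, was in 0 of 36 members and 0.638% of genes of the table. The stretches below, 5′ to 3′ on the gene's strand, show the copies upstream of the start site in capitals for the hydrolase that moved furthest between the cytokines, for pump genes and for the membrane genes with the most copies.
Gla: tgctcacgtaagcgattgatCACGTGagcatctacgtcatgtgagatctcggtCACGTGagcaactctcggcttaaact
Atp6v1a: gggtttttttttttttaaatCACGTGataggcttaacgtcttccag
Atp6v0b: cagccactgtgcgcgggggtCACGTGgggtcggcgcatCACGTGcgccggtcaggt
Lamp1: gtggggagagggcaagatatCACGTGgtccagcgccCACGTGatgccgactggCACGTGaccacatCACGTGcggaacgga
Mcoln1: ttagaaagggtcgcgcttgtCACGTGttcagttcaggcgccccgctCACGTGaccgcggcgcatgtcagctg
They lie at chrX:134601174-134601252, minus strand; chr16:44139365-44139410, minus strand; chr4:117887330-117887385, minus strand; chr8:13159080-13159160, plus strand; and chr8:3500428-3500499, plus strand (GRCm38.p6). Gla has copies beginning 227 and 194 bases before the start site, Lamp1 has 4 within 61 bases of it, and Atp6v1a has 1 at 131 bases. With all libraries Gla was called in all 3 comparisons and Lamp1 in none. Without the libraries that stand apart both were called in all 3. Lamp1 was then at -0.17 under IL-4, 0.11 under IL-27 and 0.28 between the cytokines (log2, edgeR adjusted p = 0.002, 0.0154 and 7.4e-07). Among V1 genes that rose under IL-27, Atp6v1d and Atp6v1e1 have windows and these letters are in neither. TTC and GAA with 4 bases between them, the spacing preferred by STAT6, the factor that IL-4 activates, was in 2 members (5.56%, against 6.73% of genes of the table), Atp6v0e2 and Tfeb. It reads the same on either strand. A match is a description of the letters in these windows and says nothing of binding.

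Other genes of the lysosome were counted over whole lists. Over all tested genes, 12.9% were higher and 12.0% lower under IL-4, and 14.0% and 15.1% under IL-27. Without the libraries that stand apart these shares were 24.0% and 22.3%, and 24.2% and 25.3%. Of 21 other hydrolases and activators, 2 were higher and 5 lower under IL-4, and 2 higher and 2 lower under IL-27. Without those libraries the counts were 7 and 9 under IL-4, and 8 and 7 under IL-27. Smpdl3a, a sphingomyelinase-like phosphodiesterase, was lower under IL-4 (-0.42 ± 0.07, edgeR adjusted p = 0.00247). The galactosylceramidase Galc was lower under both, at -0.35 ± 0.08 and -0.41 ± 0.08 (log2, edgeR adjusted p = 0.0095 and 0.00362), a call under IL-4 that ended in a fit of these 2 groups alone (edgeR adjusted p = 0.0522) and with no scaling beyond library totals (edgeR adjusted p = 0.0553). Of 17 other membrane proteins and transporters 0 were higher and 4 lower under IL-4, and 6 higher and 1 lower under IL-27. Without those libraries 4 were higher and 9 lower under IL-4, and 12 higher and 2 lower under IL-27. The nucleoside transporter Slc29a3 had 247, 259.6 and 256 CPM untreated, 181, 192 and 193 under IL-4 and 537, 560.4 and 576 under IL-27. Its groups did not overlap (log2 fold change 1.13 ± 0.07, edgeR adjusted p = 4.68e-06 for IL-27). The cystine exporter Ctns rose 1.55-fold under IL-27 (edgeR adjusted p = 0.000367) and the cation channel Tpcn1 fell, from 168, 219.7 and 154 to 58.4, 59.9 and 53.6 CPM (edgeR adjusted p = 7.99e-05).

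Of 10 genes for assembly and regulation of the pump, 1 was higher and 2 lower under IL-4, and 2 higher and 1 lower under IL-27. Without the libraries that stand apart 4 were higher and 5 lower under IL-4, and 7 higher and 3 lower under IL-27. Dmxl2, of the complex that docks V1 onto V0, had 112, 96.6 and 105 CPM untreated, 77.3, 77.6 and 84.5 under IL-4 and 212, 209 and 234 under IL-27. IL-4 libraries were the lowest and IL-27 libraries the highest (log2 fold change 1.06 ± 0.09, edgeR adjusted p = 1.95e-05 for IL-27). Rogdi, a partner of Dmxl2 in that complex, went the other way under IL-27, from 16.6, 29.0 and 17.1 to 5.70, 6.65 and 5.58 CPM (edgeR adjusted p = 0.000371). The assembly factor Tmem199 rose 1.57-fold under IL-27 (edgeR adjusted p = 0.00139) and Ccdc115 1.34-fold under IL-4 (edgeR adjusted p = 0.00564). Among 6 sorting genes, 0 were higher and 1 lower under IL-4, and 1 higher and 1 lower under IL-27 (1 and 2, and 3 and 1, without the libraries that stand apart). The sorting receptor Sort1 was lower under both, at 413, 440 and 404 CPM untreated, 307, 299.5 and 310.4 under IL-4 and 202, 213 and 203 under IL-27 (edgeR adjusted p = 0.00151 and 8.23e-06). Gnptab, which makes the mannose 6-phosphate tag, rose under IL-27 (log2 fold change 0.48 ± 0.08, edgeR adjusted p = 0.00151).

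Nutrient signalling genes at the lysosomal surface and the relatives of Tfeb gave 2 higher and 4 lower of 16 under IL-4, and 5 higher and 4 lower under IL-27. Without the libraries that stand apart the counts were 6 and 6, and 6 and 5. Fnip2, a partner of folliculin that acts on TFEB and TFE3 through Rag GTPases, had 652, 663 and 659.5 CPM untreated, 306, 305 and 304 under IL-4 and 1100, 1103 and 1136 under IL-27. It was lower under IL-4 (log2 fold change -1.11 ± 0.07, edgeR adjusted p = 4.72e-06) and higher under IL-27 (log2 fold change 0.76 ± 0.07, edgeR adjusted p = 3.47e-05). The Rag GTPase Rragd had 55.0, 46.0 and 61.8 CPM untreated, 29.4, 36.7 and 38.8 under IL-4 and 129, 119 and 125 under IL-27 (3.56-fold between the cytokines, edgeR adjusted p = 4.02e-06). Tfec, a macrophage-restricted relative of Tfeb, had 17.5, 13.8 and 17.9 CPM untreated, 36.3, 45.7 and 40.1 under IL-4 and 7.50, 6.87 and 7.63 under IL-27, higher under IL-4 (log2 fold change 1.31 ± 0.13, edgeR adjusted p = 8.94e-05) and lower under IL-27 (log2 fold change -1.16 ± 0.14, edgeR adjusted p = 0.00017). Mitf, another relative, named after its values were seen, had 113, 91.5 and 114 CPM untreated, 119, 148 and 144 under IL-4 and 58.0, 60.2 and 55.6 under IL-27. It fell under IL-27 (log2 fold change -0.87 ± 0.12, edgeR adjusted p = 0.00038). Its call under IL-4 (edgeR adjusted p = 0.0409) was lost without any 1 of the 8 libraries other than IL-4 replicate 1, with edgeR adjusted p from 0.0567 to 0.127. Tfec and Mitf thus stood highest under IL-4 and lowest under IL-27, as Atp6v0a1 did. Tfeb and Tfe3 passed in no comparison with all libraries. A link between these factors and Atp6v0a1 was not tested.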

How the data were processed

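RNA sequencing measured polyA transcripts in 9 mouse macrophage libraries. Per the submitters' processing notes, reads were handled with fastp, HISAT2 and HTSeq on GRCm39, and versions, annotation and strand setting are not stated there. The authors deposited whole-number read counts per gene and FPKM values for the same libraries in separate tables. Dividing out depth from the deposited FPKM gave whole gene lengths (100.0% of values within 1e-04 bases), and FPKM served only for levels between genes.

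Counts were tested with edgeR 4.0.16 in R 4.3.3 (filterByExpr with a minimum count of 10, TMM scaling, quasi-likelihood F test, all 9 libraries in 1 fit). The filter kept 12587 of 16200 genes. Calls had a Benjamini-Hochberg adjusted p under 0.05 over all tested genes, and the SE is the size of the log2 fold change divided by the root of F. The fit was tested on simulated data. Alternatives were DESeq2 1.42.0, median-ratio size factors, no scaling, no filter, the compared groups alone, a replicate block, each library left out, and both libraries that stand apart left out. No pair of libraries agreed within sampling noise. Untreated replicate 2 and IL-4 replicate 1 stood apart: pairs within a group that include them had a chi-square per gene of 121.0 to 151.9, and all other such pairs 6.05 to 10.2. Their deviations correlated at r = 0.906 over 9553 genes.

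The members and gene lists were chosen with earlier results of these data known. Values per library are given for the 8 called members of largest change in each comparison, genes that share a pump subunit, the 3 most abundant members of a class and some fixed members. For each other list, up to 3 genes of smallest adjusted p are named, and some items are not reported here. GC content is that of the longest GENCODE M21 transcript. Motifs were searched on both strands.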

Additional observations from a re-analysis of the deposited data

How the results depend on the processing

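Of 35 calls on members in 3 comparisons, 27 passed in all 16 alternatives, 8 missed the threshold in some and 0 reversed. Of 54 calls on genes of the other lists, 47 passed in all. Without scaling beyond library totals 4 members were higher under IL-4, and by DESeq2 the counts were 2 higher and 8 lower. With both libraries that stand apart left out, 6 of 41 tested members were higher and 16 lower under IL-4. There were 23 and 7 under IL-27, and 27 and 4 between the cytokines. These lower counts under IL-27 and between the cytokines include Atp6v0e2, which had failed the filter with all libraries. The shares of all tested genes also rose in that setting, to 24.0% and 22.3%, 24.2% and 25.3%, and 27.9% and 30.3%. Shares of all tested genes in the other alternatives are not given here. That setting also called genes whose sign was opposite in the fit of all libraries, where they had not passed. These were Atp6v1f under IL-27 (0.14 against untreated and 0.15 against IL-4), Neu1 (0.16) and Slc36a1 (0.15) against untreated (log2). The cause was not tested. Leaving out 1 library gave 1 to 3 members higher and 4 to 9 lower under IL-4. It gave 7 to 11 and 1 to 3 under IL-27, and 13 to 17 and 2 to 3 between the cytokines. Without IL-4 replicate 1 there were 3 higher and 9 lower under IL-4, without untreated replicate 2 there were 2 higher under IL-4, and without any 1 IL-27 library 1 member (Lipa) was lower under IL-27. The pump median exceeded the hydrolase median by 0.23 to 0.27, 0.29 to 0.38 and 0.15 to 0.25 in these 3 comparisons. Scaling moved the median of all genes by less than 0.1 (log2). The labels share replicate numbers, and the deviations of same-numbered libraries had r from -0.809 to 0.682. Untreated replicate 2 and IL-4 replicate 1, which carry different numbers, had r = 0.906. The shift in these libraries can hide a pairing by number, so these values cannot show whether the libraries are paired. A fit with the replicate block called 1 higher and 5 lower under IL-4, 7 and 2 under IL-27, and 14 and 2 between the cytokines, and ended the calls of Atp6ap2 (edgeR adjusted p = 0.0719 and 0.0613), Atp6v1e1 (0.0714) and Lamp2 (0.0834). With 3 libraries per group, small changes are not separated from no change.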
